A study of Drosophila melanogaster with 14 samples.

Results

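The 440 promoters described here lay on chromosome arm 2L of Drosophila melanogaster, inside lamina-associated domains (LADs) both in spermatogonia (SpG) and in spermatocytes (SpCs) of the male germline. Members were chosen by measured LAD positions among 1998 listed 2L genes, when the transcription start site (TSS), on the dm3 genome build, lay within a LAD interval of both stages. Of the other listed promoters, 173 were in a LAD in SpG only, 207 in SpCs only and 1178 in inter-LADs, the stretches between LADs, at both stages. As the LADs chose the members, their places within LADs are given as a description, and the gene list as held here ended at position 16729777 of the arm, so that nothing beyond it was examined.

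LADs are stretches of chromatin in contact with the nuclear lamina (NL), the protein meshwork under the inner nuclear membrane, which is built from lamins such as the B-type lamin Lam Dm0 and the A-type lamin Lam C. In most cell types they hold mainly silent, tissue-specific and developmental genes, while promoters of ubiquitous genes stand mostly outside. In the testis, a large program of germline genes is switched on as SpG become SpCs, and much of it needs Aly, a subunit of the testis-specific meiotic arrest complex (tMAC).

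LADs had been mapped by Lam-DamID, in which a fusion of the Dam methyltransferase with Lam Dm0 (Dam-Lam) marks DNA close to the NL and Dam alone gives the background, with 2 Dam-Lam and 2 Dam libraries for each stage. SpG came from testes of adult bamdelta86/bamdelta86 males, whose germline does not enter the SpC stage, with nos-Cre, a germline recombinase, releasing Dam-Lam or Dam from a pUAST-attB-hsp70-loxP-stop-loxP construct. SpCs came from larval testes, dissected at the third instar, with a pUAST-attB-LT3 construct for Dam-Lam or Dam over bam-Gal4-VP16, a driver active in late SpG and SpCs. Poly(A)+ RNA-seq compared 3 control and 3 Lam-KD libraries from larval testes of the same instar that the labels call biological replicates, each from a pool of testes. Control males carried bam-Gal4-VP16 without RNAi constructs, and Lam-KD males carried in addition UAS-LamDm0-RNAi and, on another chromosome, UAS-LamC-RNAi/+. In the DamID samples, stage is joined with age (adult for SpG, larval for SpCs), with the bam genotype and with the Dam construct and its activation. The testes of both kinds held somatic cells and some germline cells of other stages. As these are bulk samples, fewer cells of a type and less RNA per cell cannot be told apart.

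The RNA-seq libraries held 5651960 to 7437111 expected reads on genes, and TPM (transcripts per 1e+06 transcripts), a level scaled for gene length and library, are used below for comparing genes. The targeted genes were lower in each Lam-KD library. Lam was at 87.0, 96.8 and 69.7 TPM in controls and at 16.7, 15.1 and 14.9 TPM upon Lam-KD, and LamC was at 28.6, 32.1 and 19.2 TPM against 8.35, 9.36 and 7.08 TPM, so that neither gene's groups overlapped. Control replicate 3 stood apart from the other controls, with a chi-square of 12.5 and 11.9 per degree of freedom against replicates 1 and 2, which gave 5.13 between them, while Lam-KD pairs gave 2.31 to 4.08. The spermatocyte marker list was found in full (14 of 14 genes), and none of its genes was called. Its summed level was 6915, 6902 and 7746 TPM in controls and 6605, 6267 and 6898 TPM upon Lam-KD. The groups were thus without overlap by a narrow margin, and control replicate 3 was the highest. Somatic cyst and hub markers summed to 84.2 to 111 TPM in controls and to 114 to 119 TPM upon Lam-KD, also without overlap, with 1 of 8 genes, tj, called higher. Muscle markers (7 of 8 genes found) summed to 19.3 to 27.6 TPM and 25.9 to 29.2 TPM, and Mhc among them was called lower. The sums of early germline markers (6 of 7 genes found, 53.6 to 101 against 98.4 to 118 TPM) and fat body markers (5954 to 8903 against 4772 to 7653 TPM) overlapped. In the fat body list, Lsp1gamma was called lower upon Lam-KD. The part of such cells in the results below was not tested. The member Lsp1beta, a storage protein gene of the larval fat body, is 1 of 7 genes in the fat body list.

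The LADs hosting them had a median length of 10.8 kb in SpG (quartiles 6.0 and 17.7 kb, longest 64.5 kb) and of 14.7 kb in SpCs (quartiles 8.7 and 21.2 kb, longest 70.2 kb). The median over host LADs, each counted once, was 8.4 kb in SpG and 11.4 kb in SpCs. The median LAD without a member in the same span was 3.0 and 3.9 kb long. Longer LADs are more likely to hold a TSS, so this contrast is tied to how members were chosen. The TSS was a median of 2.37 kb from the nearer LAD edge in SpG and of 3.57 kb in SpCs, and the smaller of both distances had a median of 1.69 kb. LAD edges were given in bins of 300 bp, so a distance below 300 bp is not resolved, and 48 members (10.9%) were this close to an edge at either stage.

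The host LAD was rarely laid out alike in both stages. No member had the same pair of edges in SpG and SpCs, 110 (25%) shared a single edge, and 330 had neither in common. The LAD was longer in SpCs for 245 members, longer in SpG for 189 and of equal length for 6. Across the 440 members, Spearman's rho between the stages was 0.28 for LAD length and 0.28 for the distance to an edge; neighbouring members share LADs and thus are not independent points. On the whole arm, 27 LADs had the same start and end at both stages, with a median length of 900 bp, and none held a listed TSS. The plot of LAD length and distance shows this spread.

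**Figure D1:**
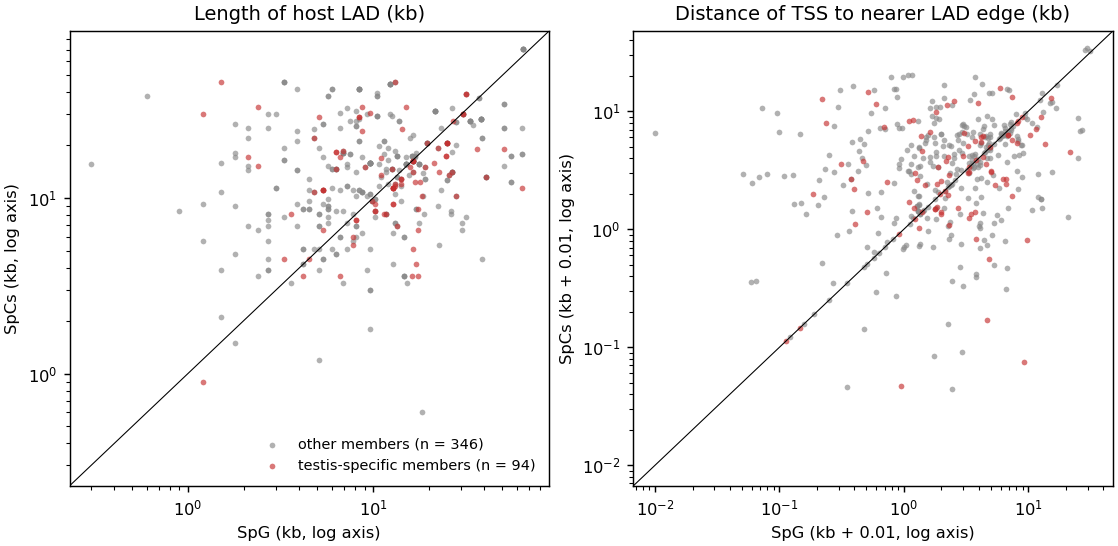
Left, length of the LAD around each member promoter in SpG (x axis, kb) and SpCs (y axis, kb). Right, distance of its TSS to the nearer LAD edge (kb, with 0.01 kb added for display), both on log axes, with a line of equality; points are the 440 genes, 94 testis-specific genes in red and 346 others in grey. Points scatter widely about the line, with 245 LADs longer in SpCs and 189 longer in SpG.

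The 5 members deepest within LADs at both stages were lectin-21Cb, lectin-21Ca, CG2839, lea and CG13689, at 31400, 29683, 28648, 16847 and 13012 bp from the nearest edge of either stage. Except for lea, they lay together in 1 LAD of 64.5 kb in SpG and of 70.2 kb in SpCs. The C-type lectin gene lectin-21Cb gave 0, 0.309 and 0.271 TPM in controls and 0, 0.241 and 0.250 TPM upon Lam-KD, and its neighbour lectin-21Ca gave 0.229, 0 and 0 TPM against 1.27, 0.459 and 1.89 TPM. Neither had enough reads to be tested, although the lectin-21Ca groups did not overlap. CG2839 was low in all libraries too (0.122 to 0.834 TPM in controls), while CG13689 was at 9.10, 6.02 and 7.41 TPM in controls. At the other extreme, the members just inside were Lsp1beta, in the outermost base of its SpG LAD (0 bp from the edge, 1101 TPM in controls), CG31668 at 34 bp (0.142 TPM) and Acp1, a cuticle protein gene, at 36 bp (0 TPM). The genes that missed by the least were CG18480 by 2 bp (0.303 TPM), CG18636 by 3 bp (1.26 TPM) and CG4375 by 4 bp (859 TPM), all distances below the size of a bin.

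A promoter position did not always stand for the gene. In 287 members (65.2%) the whole annotated gene lay in LADs at both stages, whereas less than 50% of the gene did in 26 members in SpG and in 19 in SpCs.

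Expression of the members in control larval testes spanned silence and the top of the range. Their median level was 1.85 TPM (quartiles 0.163 and 61.3), against 21.9 TPM (quartiles 4.75 and 80.1) for genes with promoters in inter-LADs at both stages. Members below 1 TPM numbered 192, or 43.6% (Wilson 95% interval 39.1 to 48.3%), compared with 135 (11.5%, 9.76 to 13.4%) in inter-LADs. Of members, 37 had no read in any of the 6 libraries. At the upper end the sets were alike: 94 members (21.4%, 17.8 to 25.4%) exceeded 100 TPM and so did 242 inter-LAD genes (20.5%, 18.3 to 22.9%). The sets differed at the low end, as just given, and in the middle, where 154 members (35.0%) and 801 inter-LAD genes (68.0%) were between 1 and 100 TPM. Promoters in a LAD at a single stage were nearer to the members at the low end, with 35.8% (SpG only) and 46.9% (SpCs only) below 1 TPM. The intervals cover counting error only.

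**Figure D2:**
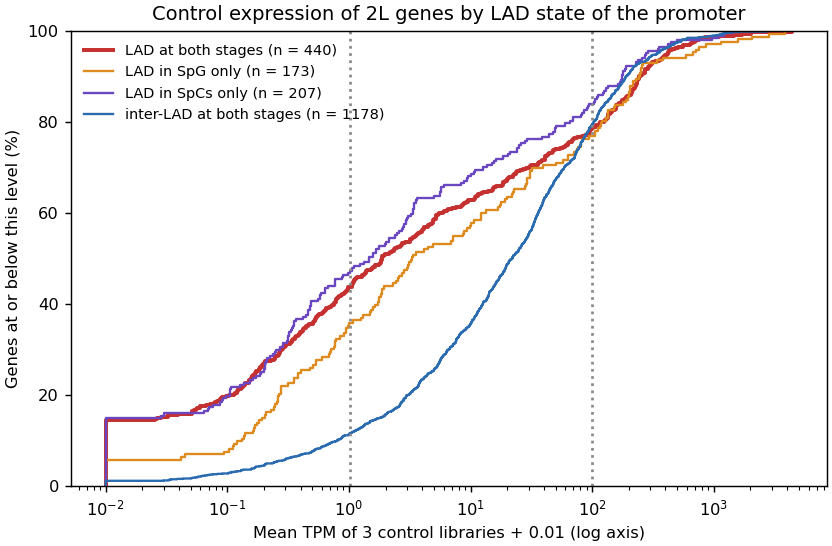
Cumulative share of genes (y axis, %) up to each mean TPM of the 3 control libraries (x axis, log scale, 0.01 TPM added for display) for the 4 promoter states, with dotted lines at 1 and 100 TPM. The members (thick red line) reach 43.6% near 1 TPM where inter-LAD genes are at 11.5%, and the lines meet near 100 TPM, above which 21.4% and 20.5% of genes remain.

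The level of a member showed next to no relation to its distance from the edge. Across the 440 members Spearman's rho between control TPM and the smaller distance to an edge was 0.02, and it was 0.05 among the 94 testis-specific members. Members within 300 bp of an edge had a median of 1.60 TPM (n = 48), those at 1800 to 3600 bp 1.08 TPM (n = 102) and those beyond 7200 bp 3.36 TPM (n = 26), and in these 3 bands 20.8%, 25.5% and 23.1% exceeded 100 TPM.

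The gene classes of the study divided the members sharply, though these classes were built partly on a TPM minimum in the same control libraries, so that a level above 1 TPM in them is not a finding. Of 165 Aly-dependent SpC-specific genes listed on the arm, 81 were members (49.1%), against 7 of 24 Aly-independent genes, 3 of 43 testis-specific genes expressed since SpG and 12 of 586 ubiquitous genes (2.05%). Another 3 members were SpC-specific without an Aly class, and 334 belonged to no class. Aly-dependent members had a median of 158 TPM and 56 of them exceeded 100 TPM. Aly-dependent genes outside the member set had a median of 152 TPM. Dam marking was strongest in early-to-mid SpCs, and microscopy had placed a cluster with Aly-dependent genes mostly away from the NL in SpCs. The paper proposes that such genes may keep early marks after leaving the NL. A LAD call in SpCs thus need not mean contact with the NL during expression, which was not tested here. The 334 members without a class had a median of 0.594 TPM, and 192 of them were below 1 TPM. Nevertheless, 30 of the 94 members over 100 TPM were not in a testis-specific class.

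The 10 highest members were CG17376 (4410 TPM), CG17377 (2025 TPM), CG31639 (2016 TPM), CG31709 (1690 TPM), CG43800 (1465 TPM), Lsp1beta (1101 TPM), CG4218 (839 TPM), CG8840 (750 TPM), CG7211 (714 TPM) and CG13110 (705 TPM), as means of the controls. CG31709, CG4218, CG8840 and CG13110 are Aly-dependent, CG7211 is Aly-independent and CG17376 is expressed since SpG. The highest, CG17376, gave 4283, 4038 and 4911 TPM in controls and 3822, 3577 and 4382 TPM upon Lam-KD, with overlap of the groups. None of the 10 was called changed upon Lam-KD. CG43800 came nearest, with 1502, 1540 and 1354 TPM in controls against 1030, 1010 and 1112 TPM, without overlap (log2 fold change -0.62 ± 0.08 SE, adjusted P = 0.0012 by edgeR's quasi-likelihood test, but a ratio of mean TPM under 1.5).

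The 12 ubiquitous members, exceptions to the usual place of such genes, were of moderate level. They ran from rau at 1.04 TPM to Pex19, a peroxisome biogenesis factor, at 98.3 TPM, with a median of 14.7 TPM, against 34.5 TPM for the 574 ubiquitous genes outside the member set. Among them were aop, the ETS-type repressor Yan (2.49 TPM), nrv1, a beta subunit of the sodium pump (4.82 TPM), the glutamine synthetase gene Gs1 (31.2 TPM) and the growth factor gene Idgf3 (67.7 TPM). The others were CG3164, CG3036, RapGAP1, rost, CG17124 and TM9SF4.

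Members stood in runs along the arm, a run being neighbouring listed genes without a non-member between them. The 440 members formed 169 runs: 72 single genes, 38 pairs and 59 runs of at least 3, which together held 292 members (66.4%). Per megabase of the arm, members made up 7.46 to 34.3% of listed genes, most between 1 and 2 Mb and fewest between 16 and 17 Mb. A run was not always a single domain, since 59 runs extended over more than 1 LAD in SpG and 48 did in SpCs. The members occupied 258 LADs in SpG and 235 in SpCs, of which 24 and 26 held at least 4 members each, with at most 10 in a LAD at either stage.

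By their level in whole control testes, silent and highly expressed genes were next to each other in these runs. As said above, a LAD call in SpCs need not mean contact with the NL during expression. Levels in SpG were not examined, so genes over 100 TPM were not shown to be expressed while inside a SpG LAD. Of the 12 runs of at least 6 members, 9 contained genes below 1 TPM as well as genes over 100 TPM, and the same was true within single LADs for 9 of the 24 SpG LADs and 12 of the 26 SpC LADs with at least 4 members. The longest run had 15 genes from Gsc to Pkg21D, with TSSs at 594685 to 790798 (196 kb). Its homeobox gene Gsc was at 0.426, 0.153 and 0.135 TPM in controls, and the Aly-dependent chaperonin gene Hsp60B was at 307, 374 and 390 TPM. Between them stood ds, which encodes the atypical cadherin Dachsous, with 1.18, 1.57 and 1.48 TPM, and beyond them the gustatory receptor gene Gr21a, with a single control library above 0 (0.124 TPM). In this run 10 genes were below 1 TPM and only Hsp60B exceeded 100 TPM.

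Next came a pair of runs of 13 genes. From CG42329 to CG31659 (1219293 to 1359790, 140 kb), 4 genes were below 1 TPM, among them robo3, a receptor for the axon guidance cue Slit, and 5 exceeded 100 TPM, of which the dynein light chain gene Cdlc2 gave 585, 663 and 708 TPM in controls. From Hsp60D to CG9263 (13449497 to 13542576, 93.1 kb), the neighbours CG33641, CG33642, CG33643 and CG33644 were at 0 TPM in all controls, and CG33640 and CG33645 averaged 0.388 and 0.383 TPM. They were flanked by CG42810 at 271 TPM and, on the other side, by the Aly-dependent genes CG15638, CG16852 and CG16853 at 233, 191 and 115 TPM, followed by CG9263 at 243 TPM. The plot of the longest runs shows the steps between neighbours.

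**Figure D3:**
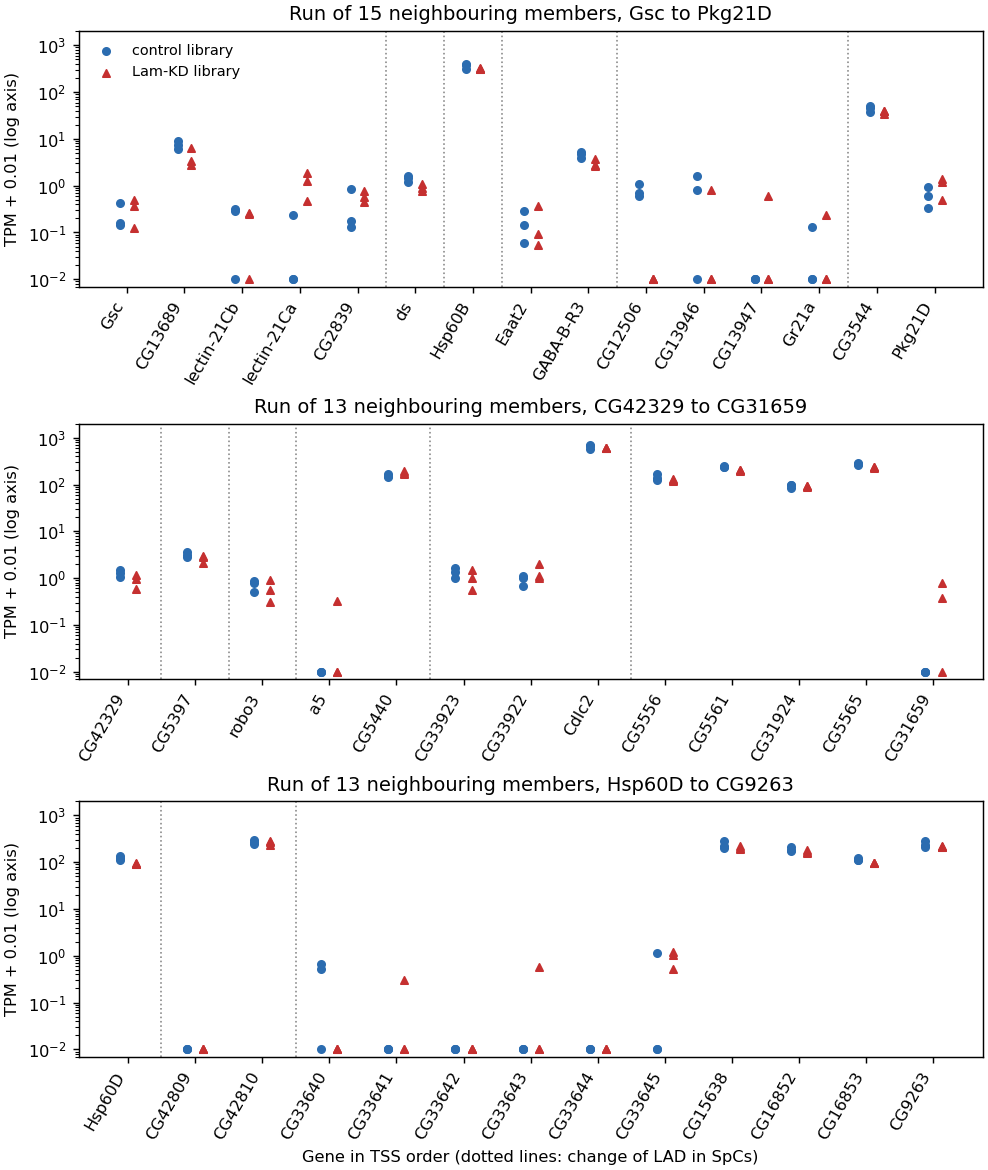
TPM (y axis, log scale, 0.01 TPM added for display) of each gene in the 3 longest runs of member promoters, in TSS order along x, with blue circles for the 3 control libraries, red triangles for the 3 Lam-KD libraries and dotted lines where the LAD in SpCs changes. Neighbouring genes differ by orders of magnitude, as Hsp60B (357 TPM) beside Eaat2 and ds, and the libraries of a gene over 100 TPM lie close together.

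Gene families known from textbooks fell at either end of this range. They were listed with earlier results of these data in view, and levels are means of controls unless libraries are given. Testis paralogs of general genes, which are germline-expressed copies of housekeeping proteins, had 16 of 23 listed genes among the members, none below 36.5 TPM and 12 over 100 TPM (median 218 TPM, against 199 TPM for listed paralogs outside the set). They included chaperonins (Hsp60B, Hsp60C at 671 TPM and Hsp60D at 124 TPM), proteasome subunits (Prosbeta4R1 at 253 TPM, Prosbeta4R2 at 425 TPM and Prosalpha6T at 224 TPM), dynein light chains (Cdlc2 and robl22E at 374 TPM) and the mitochondrial import gene Tim17b2 (476 TPM). Of 10 cup and sperm genes, whose transcripts serve spermatid differentiation, 5 were members: w-cup (634 TPM), c-cup (389 TPM), t-cup (214 TPM), the sperm calcium channel gene Pkd2 (101 TPM) and spag4 (42.2 TPM). The median was 214 TPM for these members and 752 TPM for the listed cup and sperm genes outside the set. The testis adenylyl cyclase genes ACXA, ACXB and ACXE, 3 of 4 listed, were at 63.6, 16.0 and 11.5 TPM, and the other listed gene was at 94.8 TPM.

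Chemosensory genes were at the low end. Of 28 listed receptors and odorant binding proteins, 16 were members, with a median of 0.245 TPM, 11 below 1 TPM and none over 100 TPM. Those outside the set were as low, with a median of 0.269 TPM. The odorant binding protein gene Obp22a had no read in any library. The Gr22 cluster of gustatory receptors lay in 1 LAD of 15 kb in SpG and of 15.6 kb in SpCs, where Gr22a, Gr22b, Gr22d and Gr22e were at 0.056 to 0.461 TPM and Gr22c at 4.89 TPM. Gr22f, some distance away at the very edge of a short LAD (49 bp in SpG), was the highest at 19.0 TPM. In another run the odorant receptor gene Or23a (3.16 TPM) and Gr23a (5.35 TPM) stood beside the proteasome genes Prosbeta4R1 and Prosbeta4R2.

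All 7 members among 20 seminal fluid protein genes, which are made in the accessory gland, were below 1 TPM, and 5 of them (Sfp23F, Sfp24Ba, Sfp24Bc, Sfp26Ac and Sfp35C) were at 0 TPM in the controls. Of 5 cuticle protein genes among the members (8 listed), 4 were below 1 TPM and Pcp was at 2.26 TPM. Developmental transcription factors had 13 of 32 listed genes in the set, 9 of them below 1 TPM, including Gsc, the forkhead gene slp2 and the zinc finger gene sna, both at 0 TPM in the controls. The other 4 were eya, which is needed in the somatic cyst cells of the testis (22.2 TPM), prd (19.9 TPM), net (18.0 TPM) and Ets21C (2.33 TPM). Among 7 secreted signals, 4 were below 1 TPM, including the BMP ligand gene dpp at 0.889, 0.873 and 0.844 TPM, and the activin-like daw was highest at 4.99 TPM. Medians of members and of listed genes outside the set were 0 and 0 TPM for seminal fluid and 0 and 0.240 TPM for cuticle genes. They were 0.0691 and 0.969 TPM for transcription factors and 0.869 and 0.245 TPM for secreted signals.

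The Nimrod and Tep genes, which serve phagocytosis and are typical of hemocytes, stood between these extremes. Of 18 listed, 14 were members, with a median of 3.59 TPM, 4 below 1 TPM and the highest, NimC2, at 18.4 TPM. Those outside the set had a median of 14.5 TPM. In SpCs, NimB1, NimB2, NimB4, NimB5, He, NimC1 and NimC2 shared a LAD of 41.7 kb, whereas they were spread over 3 LADs of 3.9 to 8.4 kb in SpG. The summed hemocyte markers, of which He, NimC1 and vkg are members, were 27.3 to 48.7 TPM in controls and 37.5 to 38.9 TPM upon Lam-KD. Of 12 cytochrome P450 genes, 5 were members, from 0 TPM (Cyp4d21) to 8.34 TPM (Cyp28d2). Their median was 1.37 TPM, against 3.51 TPM for listed P450 genes outside the set.

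The comparison of Lam-KD with control shows how levels of these genes differed in whole testes when both lamins were lowered in the germline. In the paper's images, somatic cells of Lam-KD testes kept both lamins. Calls need a Benjamini-Hochberg adjusted P under 0.05 by edgeR's quasi-likelihood test over all 10318 genes tested and a ratio of mean TPM over 1.5. Enough reads for the test were found for 251 of the 440 members. Of these, 27 fell (10.8%, where 3.22% of all tested genes were called lower) and 7 rose (2.79%, where 3.19% of all tested genes were called higher). A similar share fell among genes in LADs in SpCs only, 12 of 110 (10.9%), with 3 higher, while 2 of 123 fell and 10 rose among genes in LADs in SpG only, and 20 of 1057 fell and 42 rose in inter-LADs. Whether these shares differ was not tested. The count of members called lower was 16 without Lam-KD replicate 1 (6.50% of tested members, against 1.80% of all genes) and 16 without Lam-KD replicate 2 (6.48% against 1.95%), and the number called higher was 2 in both cases.

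The genes that fell were mostly weakly expressed. Their median control level was 5.17 TPM, and only CG16713 exceeded 100 TPM in controls. Of the 27, 26 were not testis-specific, as were 157 of the 251 tested members. By adjusted P alone, 21 of 94 testis-specific members were lower and 1 higher, against 32 and 6 of 157 others. Over all tested genes, 7.34% were lower and 5.31% higher by adjusted P alone. In 25 of the 27, control and Lam-KD libraries did not overlap, with CG16712 and CG16713 the exceptions; of all 332 genes called lower, 325 (97.9%) did not overlap either, and the count thus adds nothing to the call. The steepest was CG15293, with 11.3, 13.98 and 11.0 TPM in controls and 3.07, 2.07 and 2.24 TPM upon Lam-KD (log2 fold change -2.33 ± 0.23 SE, adjusted P = 0.00014 by edgeR). CG32984 was next, at 1.74, 2.10 and 1.93 TPM against 0.595, 0.725 and 0.635 TPM (-1.63 ± 0.30, adjusted P = 0.0065 by edgeR). In both, each Lam-KD library was less than the lowest control by a wide margin. CG31928 fell by 1.52, CG31769 by 1.49 and CG34393 by 1.48 on the log2 scale. The call of CG34393 was lost when any single library was left out (adjusted P between 0.058 and 0.13 by edgeR), and that of CG31769 without Lam-KD replicate 2 or 3 or control replicate 1 or 2 (0.063 to 0.15). With all libraries kept, CG31769 was not called by DESeq2 (adjusted P = 0.053), nor CG34393 with DESeq2 size factors in edgeR (0.052) or without the filter on low counts (0.053).

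Both chemosensory genes with the highest levels fell. Gr22f was at 18.8, 15.9 and 22.3 TPM in controls and at 7.14, 6.999 and 9.58 TPM upon Lam-KD (-1.36 ± 0.22, adjusted P = 0.0033 by edgeR). Gr23a was at 6.30, 6.36 and 3.39 TPM against 2.18, 2.73 and 2.19 TPM (-1.25 ± 0.29, adjusted P = 0.022 by edgeR), and without any of the Lam-KD libraries, or without control replicate 1, it was no longer called (adjusted P between 0.056 and 0.098 by edgeR). Gr22c, at 3.74, 5.39 and 5.54 TPM against 2.32, 2.88 and 3.24 TPM, did not pass (adjusted P = 0.072 by edgeR), and Or23a did not either. The remaining 12 chemosensory members had too few reads.

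Further genes that fell are given singly, as they belong to no common list. The atypical cadherin gene ft was at 0.226, 0.344 and 0.317 TPM in controls and at 0.110, 0.147 and 0.130 TPM upon Lam-KD (-1.28 ± 0.26, adjusted P = 0.011 by edgeR). Its partner ds, in another run, was at 1.18, 1.57 and 1.48 TPM against 0.754, 0.875 and 1.09 TPM (-0.72 ± 0.18, adjusted P = 0.029 by edgeR). The groups did not overlap in either, although the call of ft was lost without Lam-KD replicate 1 (adjusted P = 0.064 by edgeR) and that of ds without Lam-KD replicate 1 or 2 (0.14 and 0.13). Without control replicate 2, the TPM ratio of ds was under 1.5. The extracellular matrix gene dp fell by 0.98 on the log2 scale, from 0.771 to 0.421 TPM on average. The rhomboid family gene rho-6 was at 19.8, 21.3 and 29.6 TPM against 10.5, 7.32 and 11.8 TPM (-1.33 ± 0.25, adjusted P = 0.0067 by edgeR).

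The glutamate transporter gene Eaat1 fell by 1.06 and GABA-B-R3, a metabotropic GABA receptor gene, by 0.62 on the log2 scale, from means of 3.66 and 4.62 TPM. Eaat1 was not called without Lam-KD replicate 2 (adjusted P = 0.062 by edgeR), nor GABA-B-R3 without Lam-KD replicate 1 or 2 (0.13 each) or control replicate 2 (TPM ratio under 1.5). Of 5 neuron markers, nSyb and brp were called lower and Syt1 higher, elav and futsch stayed below 1 TPM in all libraries, and the list summed to 11.9 to 14.9 TPM in controls and 14.9 to 18.1 TPM upon Lam-KD. Apoltp, a fat body lipoprotein gene, fell by 0.89 on the log2 scale from 0.815 TPM, a call lost without Lam-KD replicate 1 (adjusted P = 0.061 by edgeR). Lsp1beta, at 1289, 1107 and 907 TPM against 884, 1069 and 656 TPM, overlapped between the groups and did not pass (adjusted P = 0.092 by edgeR). Tep3 fell from 5.61, 5.97 and 4.99 TPM to 3.63, 3.47 and 3.55 TPM (-0.72 ± 0.11, adjusted P = 0.0020 by edgeR), and without control replicate 2 its TPM ratio was under 1.5. Of the 12 ubiquitous members, 2 fell: RapGAP1, which encodes a GTPase-activating protein of Rap1, from 4.97, 5.93 and 4.61 TPM to 2.78, 2.74 and 2.39 TPM, and CG3036 from 6.29, 6.38 and 8.29 TPM to 4.42, 3.66 and 2.97 TPM. CG3036 overlaps a gene on the opposite strand, whose reads cannot be told apart from its own here.

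The 7 genes that rose had no overlap between groups, as was the case for all 329 genes called higher. CG9505 was at 1.25, 1.10 and 0.901 TPM in controls and at 6.35, 7.52 and 5.64 TPM upon Lam-KD (2.48 ± 0.20, adjusted P = 2.3e-05 by edgeR). CG18284 had at most 2 reads in a control library and 3.20, 2.08 and 1.78 TPM upon Lam-KD, which was at least 5.777-fold higher when each control library was set to 3 reads. The single testis-specific gene among them, the Aly-dependent CG3528, rose from 23.2, 25.6 and 27.1 TPM to 60.4, 71.5 and 68.8 TPM (1.32 ± 0.13, adjusted P = 0.00016 by edgeR). These 3 kept their calls under each alternative that gave them a value. Tep1 rose from 0.545, 0.609 and 0.401 TPM to 1.25, 1.57 and 0.907 TPM (1.17 ± 0.27, adjusted P = 0.019 by edgeR), a call lost without Lam-KD replicate 1 or 2 (adjusted P = 0.076 and 0.098). The calls of eys, a matrix protein gene of the eye (1.63 ± 0.43), of CG5973 (0.81 ± 0.19) and of lea, a Slit receptor gene (0.57 ± 0.16), were each lost without Lam-KD replicate 1 or 2, and also without others: Lam-KD replicate 3 or control replicate 2 for eys (adjusted P 0.052 to 0.14 by edgeR), control replicate 1 for CG5973 (0.053 to 0.11) and Lam-KD replicate 3 or control replicate 1 or 2 for lea (0.071 to 0.17). Without control replicate 3, the TPM ratio of CG5973 was under 1.5. With all libraries kept, lea was not called by DESeq2 (adjusted P = 0.059) nor with DESeq2 size factors in edgeR (0.053). Both eys and CG5973 overlap a gene on the opposite strand.

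**Figure D4:**
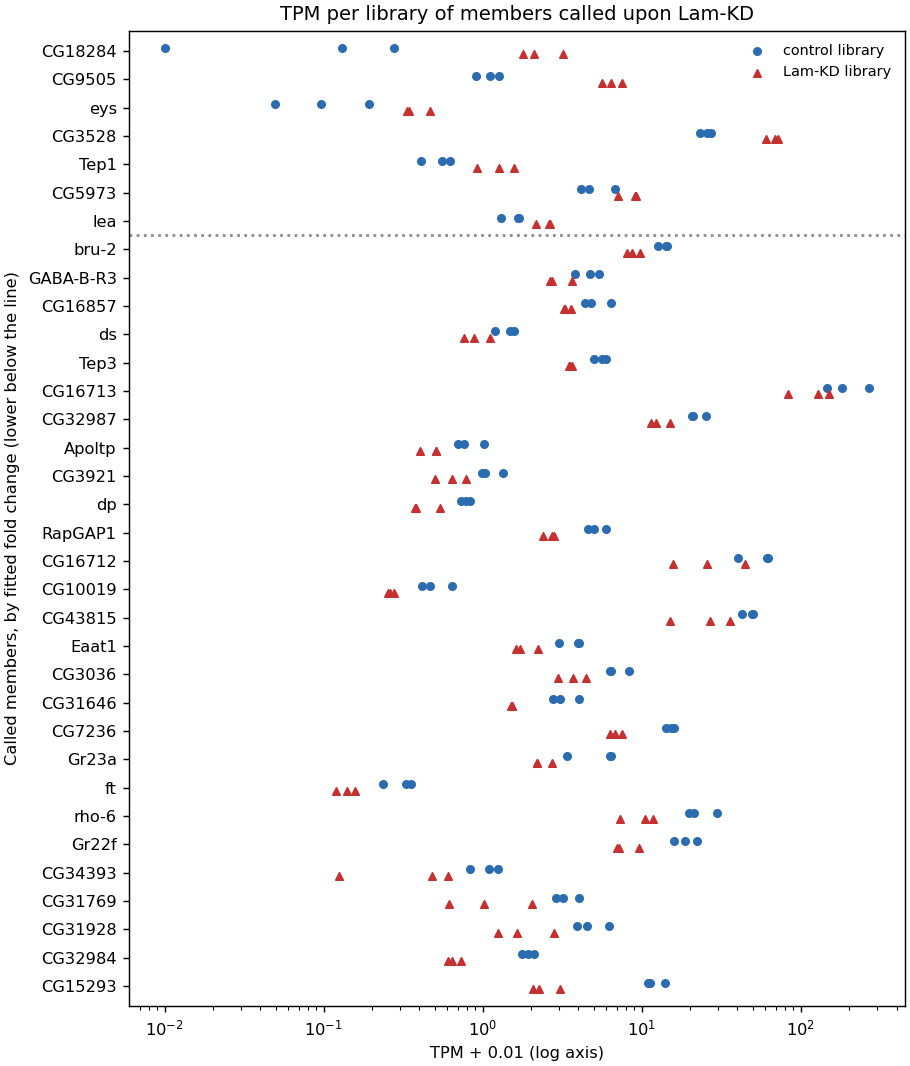
TPM per library (x axis, log scale, 0.01 TPM added for display) of the 34 members called changed, in order of fitted fold change (y axis), with blue circles for controls and red triangles for Lam-KD and a dotted line between the 27 lower and the 7 higher genes. The groups are apart in all but CG16712 and CG16713, and most genes lie below 30 TPM.

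Members with high expression shifted by a small amount, and genes over 100 TPM outside the set were not examined in this way. In the paper, highly active autosomal genes were slightly lower upon Lam-KD, and SpC-specific genes were mostly lower. Of the 94 members over 100 TPM, 90 had a lower mean upon Lam-KD, with a median log2 ratio of -0.21, but 1 was called; 19 passed the adjusted P alone in the lower direction and none in the higher, where 7.34% and 5.31% of all tested genes did. In 16 testis paralogs, 15 had a lower mean, with a median log2 ratio of -0.21, none was called, and 4 passed the adjusted P alone in the lower direction (Tengl2, robl22E, Ntl and Hsp60D), against the same 7.34% of all genes. For example, Hsp60D was at 114, 125 and 133 TPM in controls and at 93.7, 94.5 and 91.2 TPM upon Lam-KD (-0.51 ± 0.11, adjusted P = 0.012 by edgeR). The shift stood beside the sum of spermatocyte markers given above, which was lower upon Lam-KD by a narrow margin between groups. The part of that sum in the shift was not tested.

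Over the 248 members above 1 TPM, the median log2 ratio was -0.23 and 191 (77.0%) were below 0. Over all 10185 genes above 1 TPM in the tables it was 0.09, with 40.1% below 0, and over inter-LAD genes of the arm it was 0.15. Genes of the arm in LADs at a single stage were also below 0. Their medians were -0.14 (64.9% below 0) for SpG only and -0.18 (60.9% below 0) for SpCs only. The testis-specific members had -0.19 (81 of 94 below 0) and the others -0.25 (110 of 154 below 0). Aly-dependent genes had nearly the same median inside and outside the member set, -0.23 and -0.21. The 12 ubiquitous members had 0.15, and ubiquitous genes outside the set 0.17. Genes without a class had -0.28 inside and 0.06 outside. The 7 Aly-independent members had 0.24, against -0.03 for such genes outside. Set against the mean of the controls, the median of members was -0.25, -0.23 and -0.18 in the 3 Lam-KD libraries. Set against the other controls, it was -0.08, -0.07 and 0.10 in the 3 control libraries, with control replicate 3 the only one above 0. Without control replicate 3 the median of members was -0.16 and that of inter-LAD genes 0.06. Members took 3.91 to 4.38% of all TPM in controls and 3.46 to 3.66% upon Lam-KD, without overlap.

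**Figure D5:**
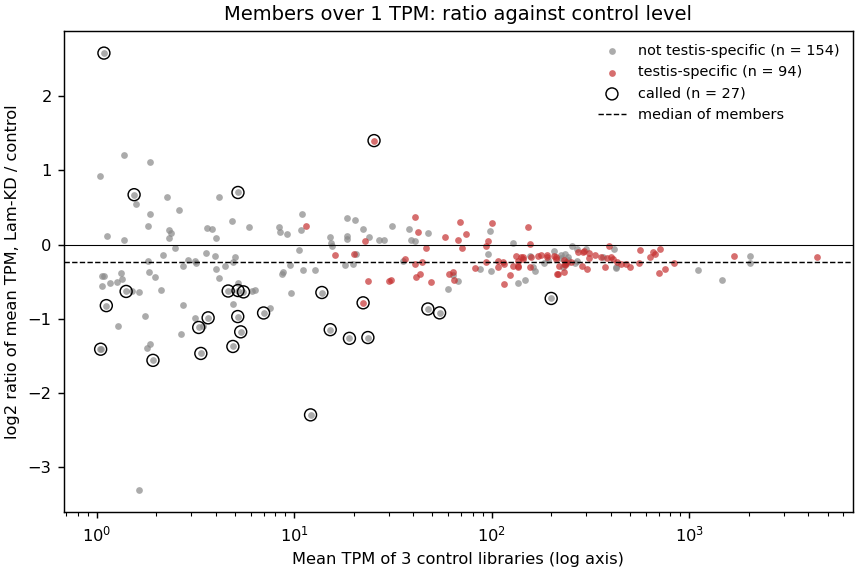
log2 ratio of mean TPM, Lam-KD to control (y axis), against mean control TPM (x axis, log scale) for the 248 members above 1 TPM, with 94 testis-specific genes in red, 154 others in grey, called genes circled and the median of -0.23 dashed. Above 100 TPM the points form a narrow band mostly below 0, and nearly all called genes are below 100 TPM and not testis-specific.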

How the data were processed

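Libraries were grouped by stage, construct and genotype from the sample labels. For Lam-DamID, the authors deposited LAD positions per stage on dm3 in 300-bp bins, which had been made with Bowtie2, HTSeq, merged replicates, log2(Dam-Lam/Dam) and a 2-state hidden Markov model. Bins without Dam reads can break such intervals, and merged replicates leave no replicate error for an edge. TSSs and gene classes came from the study's supplementary gene table, an incomplete copy, so no overlap was tested. A TSS was a member when it lay in an interval of both files.

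RNA-seq values deposited by the authors were expected counts of each gene in each library and TPM made from the same Salmon estimates on BDGP5.78. The library's strand was not given in the sources used here. Reads of overlapping genes (36.4% of members, 26.4% with a gene on the opposite strand) cannot be told apart, and near-identical copies share reads by estimation. Expected counts were rounded and tested with edgeR 4.0.16 (TMM, quasi-likelihood) in R 4.3.3, without Lam and LamC, where a gene reached 10 expected reads in 3 or more of the 6 libraries. P was adjusted by Benjamini-Hochberg over all 10318 genes. As SE, the fitted change over the root of its F statistic was taken. DESeq2 1.42.0 was an alternative. Depth of 5651960 to 7437111 reads leaves wide errors for genes with few reads, and where no library of a group exceeded 3 reads, only a lower bound of the fold was given. The test was checked on simulated data.

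Members and gene lists were chosen with earlier results of these data known. Genes named are the 10 highest, the 5 deepest, those nearest the threshold, the 3 longest runs, ubiquitous members, list members and called genes without overlap, up to 8 a direction. The remaining called genes named, and the genes of other runs, were chosen after their values were seen. No sequence is shown, as no genome was used.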

Additional observations from a re-analysis of the deposited data

How the results depend on the processing

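The median log2 ratio over members and the fold changes of called genes kept their direction under the alternatives tried. The counts, LAD lengths, distances and shares that were varied have no direction to reverse and were judged by a margin only. For counts and medians, 57 alternative values stayed within a set margin and 23 moved beyond it. For called genes, 264 alternatives kept the call and 70 lost it. Class and family levels, marker sums and distance bands were not varied. The set of members held 392 to 458 promoters when LADs at most 300 or 1200 bp apart were joined, short LADs were left out or a TSS had to be 300 bp inside, and 485 when TSSs up to 300 bp outside were accepted. Joining moved the median host LAD length to 14400 bp (gaps of 300 bp) and 16650 bp (1200 bp) in SpG and to 17700 and 24300 bp in SpCs. It moved the median distance to an edge to 3432 and 4038.5 bp in SpG and to 4452 and 5421.5 bp in SpCs, and in SpG the stricter member definition gave 2844.5 bp. The share of members with low expression was 36.1% under 0.5 TPM and 50.9% under 2 TPM. The median log2 ratio over members was -0.31 with TMM-normalized CPM, -0.19 over 10 TPM, -0.068 with all members at log2(TPM + 1) and -0.25 to -0.16 with single libraries left out. Over all genes TMM-normalized CPM gave 0.02. Members called lower numbered 53 without a fold threshold (21.1% of those tested, against 7.34% of all genes) and 16 to 24 with a library left out, those not testis-specific 14 to 23, and members called higher 2 to 6. Leaving out libraries for members called lower and not testis-specific, and both alternatives for members over 100 TPM, were chosen after seeing the data. Of members called lower, 15 of 16 without Lam-KD replicate 1 and 15 of 16 without Lam-KD replicate 2 were among the 27. DESeq2 called 25 lower and 6 higher. Replicate numbers were not treated as pairs, and whether they pair the samples was not settled. Same-numbered deviations correlated at 0.06, 0.07 and 0.18 and differently numbered ones at -0.16 to 0.11. With the replicate number as a block, 31 members were lower (12.4%, against 3.92% of all genes) and 8 higher (3.19% against 4.10%). Depth left the members outside the 251 tested with too few reads for a test.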

Other observations

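Neighbouring members of a single LAD did not all move alike upon Lam-KD. Tep2 and Tep3, thioester protein genes, shared a LAD of 21.6 kb in SpG and of 31.5 kb in SpCs. Tep2 was at 18.7, 12.6 and 13.9 TPM in controls and at 15.2, 18.2 and 14.9 TPM upon Lam-KD, with overlap of the groups (log2 fold change -0.01 ± 0.14 SE, adjusted P = 0.98 by edgeR), while Tep3 fell, as given above. Tep2 overlaps a gene on the opposite strand, and the difference between both genes was not tested. The nearby member Ntl, a transporter gene of the same run but of another LAD, was at 117, 134 and 134 TPM against 101, 107 and 109 TPM (-0.38 ± 0.10, adjusted P = 0.040 by edgeR), under the 1.5-fold threshold. These genes were singled out after their values were seen.

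In the run from Sfp24Bc to CG42464, CG16712 and CG16713 lay in 1 LAD of 9.6 kb in SpG and of 15.9 kb in SpCs with the silent seminal fluid gene Acp24A4. CG16712 was at 61.0, 61.8 and 40.3 TPM in controls and at 44.7, 25.7 and 15.7 TPM upon Lam-KD, and CG16713 was at 270, 146 and 183 TPM against 128, 150 and 83.3 TPM. Both were called lower although their groups overlapped, and both calls were lost without Lam-KD replicate 2 or 3 or control replicate 1.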
